A study of Mus musculus with 15 samples.

Results

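The genes described are 8 of the dual-specificity phosphatases that switch off MAP kinases, Dusp1, Dusp2, Dusp4, Dusp5, Dusp6, Dusp7, Dusp10 and Dusp16, out of 55421 genes counted per sample. They were picked by symbol, with measured values of the same samples already known, among them the lower level of Dusp2 in KO than in WT cells of both organs, so their KO against WT values below are a description, and the calls given with them are not evidence about these genes. Naive donor CD4+CD25-CD44-CD62L+ T cells were transferred into Rag2-/- recipients, and 6 weeks later CD4+ T cells were recovered by sorting from 2 organs, the spleen and the mesenteric lymph node (mLN), a model of T cell transfer colitis. Donors carried Prkaa1 fl/fl alleles on a C57BL/6 background. WT donors had no Cre, and KO donors carried CD4-Cre, which deletes the floxed gene from the CD4+CD8+ stage of thymocyte development on and thus before the transfer. The WT cells therefore do not control for Cre itself, and all cells in both groups came from hosts that had no T or B cells of their own. There were 4 WT and 4 KO samples from spleen, 3 WT samples (numbers 1, 2 and 4) and 4 KO samples from mLN, because the authors left out 1 WT mLN sample on quality control. The authors describe these data as coming from 1 experiment with 4 mice per group, though the labels do not tie a sample to a mouse. The spread between samples may be in part technical.

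MAP kinases (ERK, JNK and p38) are active when a threonine and a tyrosine in their activation loop are both phosphorylated, and the dual-specificity phosphatases remove the phosphate from both residues. In T cells ERK is engaged downstream of the T cell receptor. Several of the phosphatase genes are themselves induced by MAP kinase signalling, so that they act as feedback inhibitors and their mRNAs are widely read as traces of recent signalling. Dusp1, Dusp2, Dusp4 and Dusp5 encode inducible nuclear enzymes, Dusp6 and Dusp7 encode cytoplasmic enzymes selective for ERK, and Dusp10 and Dusp16 encode enzymes that prefer JNK and p38. On GRCm38, by GENCODE M21, the inducible nuclear group comprises Dusp1 (chr17:26505590-26562128, minus strand), Dusp2 (chr2:127336159-127338376, plus strand), Dusp4 (chr8:34807297-34819894, plus strand) and Dusp5 (chr19:53529109-53542431, plus strand). The cytoplasmic pair is Dusp6 (chr10:99263231-99267489, plus strand) and Dusp7 (chr9:106368632-106375724, plus strand), and the JNK and p38 pair is Dusp10 (chr1:184013302-184075636, plus strand) and Dusp16 (chr6:134715468-134792625, minus strand). Counts cover all exons of each gene. Prkaa1 encodes the AMPKα1 catalytic subunit of AMP-activated protein kinase, the cellular energy sensor.

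Reads on genes came to 9363940 to 11283439 per sample, and 58.4% to 63.4% of the uniquely aligned reads lay on no gene. Values are raw counts per 1e6 reads on genes (CPM) unless a scale is named. The Prkaa1 count was 470 to 616 in the WT samples and 194 to 360 in the KO samples and did not overlap in either organ. The 7 CD4 T cell markers (Cd3d, Cd3e, Cd3g, Cd4, Trac, Lck and Cd28) summed to 6418 to 8192 CPM, whereas the 6 B cell markers summed to 1.88 to 8.82 CPM and the 2 CD8 markers to 1.61 to 28.2 CPM, with Cd8a and Cd8b1 together at 18.9 to 28.2 CPM in KO mLN and at 1.61 to 5.11 CPM in the spleen samples. The 6 erythroid markers, which include the globins, summed to 1888 CPM in WT spleen 3, 910 CPM in WT spleen 4 and 798 CPM in WT mLN 4, against 17.8 to 120 CPM in the other samples. The 9 myeloid markers were higher in spleen (191 to 645 CPM) than in most mLN samples (106 to 250 CPM).

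The sequences upstream of the 3 genes that were called lower in mLN than in spleen of KO cells are shown first. The 250 bases before the transcript start on the gene's strand are given for Dusp1 (chr17:26508473-26508722, minus strand), Dusp2 (chr2:127335909-127336158, plus strand) and Dusp6 (chr10:99262981-99263230, plus strand), from RefSeq on GRCm38.p6. Capitals mark exact matches, on either strand, to the cyclic AMP response element TGACGTCA or its half-site TGACG, the EGR motif GCGNGGGCG, the E-box CACGTG, the AP-1 motif TGANTCA, the TATA box TATAAA, the CArG box or the NF-kB motif.
Dusp1: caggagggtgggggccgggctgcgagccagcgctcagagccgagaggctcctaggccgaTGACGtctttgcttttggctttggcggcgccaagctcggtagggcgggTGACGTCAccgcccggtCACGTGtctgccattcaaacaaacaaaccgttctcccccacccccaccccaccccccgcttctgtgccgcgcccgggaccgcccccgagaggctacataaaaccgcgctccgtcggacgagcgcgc
Dusp2: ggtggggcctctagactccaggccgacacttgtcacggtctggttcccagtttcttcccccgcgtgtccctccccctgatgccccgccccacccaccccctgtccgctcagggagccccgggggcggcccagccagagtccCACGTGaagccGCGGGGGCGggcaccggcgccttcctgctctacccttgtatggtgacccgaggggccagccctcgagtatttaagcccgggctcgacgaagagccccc
Dusp6: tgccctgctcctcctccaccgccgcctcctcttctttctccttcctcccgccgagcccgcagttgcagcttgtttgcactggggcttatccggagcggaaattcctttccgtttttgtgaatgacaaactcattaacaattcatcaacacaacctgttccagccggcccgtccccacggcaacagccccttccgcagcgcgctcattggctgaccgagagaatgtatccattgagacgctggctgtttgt
In windows that also took in 50 bases after the start, the table held 7 of the 8 genes, and motifs were searched in those 7. The Dusp1 window held the full response element, whose match overlaps its half-site on both strands, and a separate half-site. The full element is in 1.79% and the half-site in 20.8% of all 32851 promoter windows. An E-box lay 126 bases before the start of Dusp1 and 109 bases before that of Dusp2, against 7.15% of all windows with one. The EGR motif was matched in Dusp2 and Dusp16 (5.55% of all windows). Dusp2, Dusp5 and Dusp16 each held 1 half-site, that of Dusp2 after the start. Dusp5 held a pair of neighbouring CArG boxes, CCATATTTGG and CCTTATATGG, the binding motif of serum response factor (1.63% of all windows). Dusp6, Dusp7 and Dusp10 held none of these motifs in the window. The GC box GGGCGG was matched in every one of the 7 except Dusp6, and in 35.7% of all windows. A match is a stretch of letters and not a measured site.

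The 8 genes spanned a wide range of levels. Because longer transcripts yield more reads, levels were compared between genes only as CPM per kilobase of annotated exons. Dusp2 was the most abundant in every group, at 154 ± 52.3 CPM per kilobase in WT spleen (SD, n = 4), 74.4 ± 5.68 in KO spleen (SD, n = 4), 116 ± 48.9 in WT mLN (SD, n = 3) and 46.5 ± 8.22 in KO mLN (SD, n = 4), and in each group its lowest sample lay above the highest sample of the next gene. Dusp6 and Dusp5 came next, at 28.9 to 42.4 and 28.5 to 38.2 CPM per kilobase as group means, and their ranges overlapped in WT spleen and KO mLN. Dusp1 came after them, at rank 4, in WT spleen (29.4 ± 8.66), KO spleen (22.3 ± 5.71) and WT mLN (25.7 ± 16.2), overlapping Dusp10 in the latter 2 groups, but ranked below Dusp10 in KO mLN (8.40 ± 1.90 against 17.2 ± 1.33 CPM per kilobase, SD, n = 4), with no overlap between these 2 genes there. Dusp10 had group means of 16.5 to 17.2 CPM per kilobase, and Dusp7 (3.99 to 6.90), Dusp4 (1.66 to 3.17) and Dusp16 (0.129 to 0.260) followed in that order in all 4 groups. Dusp4 and Dusp16 overlapped in KO mLN but in no other group. The exon union of Dusp1 is 3311 bases because annotated transcripts reach far upstream, and with its longest transcript of 2313 bases Dusp1 moved ahead of Dusp5 in WT spleen and ahead of Dusp6 in WT mLN.

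**Figure D1:**
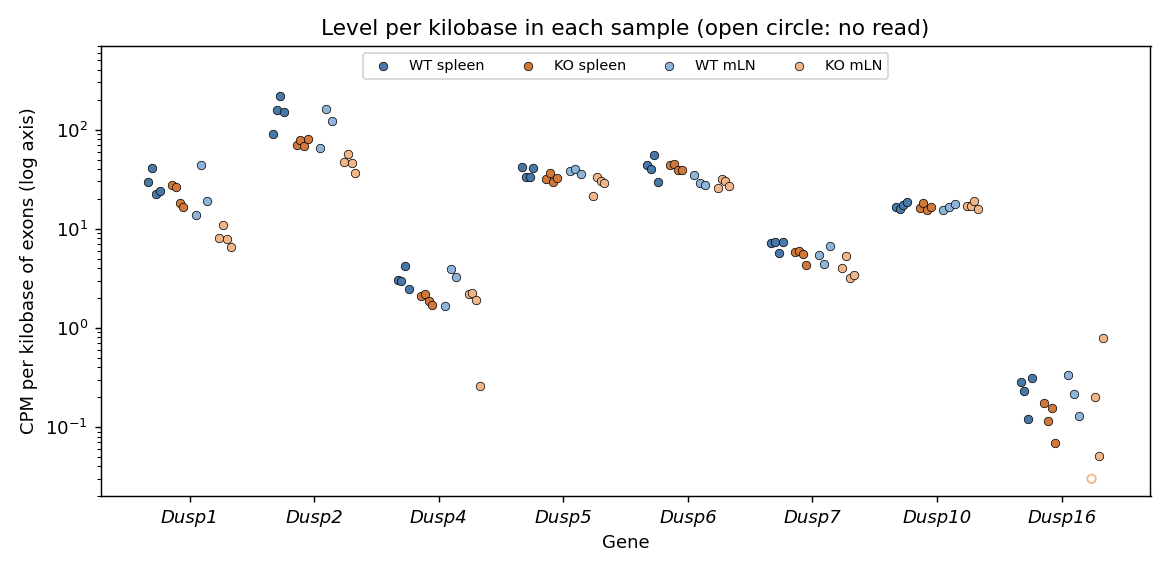
Level of each phosphatase gene in CPM per kilobase of exons on a log axis, with 1 point for each of the 15 samples, coloured by group (open circle: no read). Dusp2 lies above every other gene in each group, and Dusp1 drops below Dusp10 in the 4 KO mLN samples.

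The first question was how the phosphatase mRNAs compared between KO and WT cells within an organ. Dusp2, first described as a phosphatase of activated lymphocytes, had CPM of 180, 315, 436 and 300 in WT spleen samples 1 to 4 and 140, 157, 138 and 160 in KO spleen samples 1 to 4. In mLN it had CPM of 131, 326 and 243 in WT samples 1, 2 and 4 and 93.9, 113, 93.2 and 72.7 in KO samples 1 to 4. All KO samples lay below all WT samples of the same organ, and the WT samples were spread far more widely than the KO samples. The fitted log2 fold change of KO against WT, from edgeR with TMM normalization, was −1.04 ± 0.21 (SE) in spleen and −1.33 ± 0.24 in mLN. Without the 3 libraries high in erythroid markers the log2 fold change of Dusp2 was −0.70 in spleen and −1.30 in mLN. Neither then passed the adjusted p limit of 0.05 that both had passed. These fits kept only WT samples 1 and 2 of each organ, and in mLN only WT mLN 4 was left out. The part of erythroid content in the lost calls was not tested. In bulk samples, fewer cells that express a gene and less of its RNA per cell cannot be told apart.

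Dusp1, an immediate early gene whose enzyme acts on p38, JNK and ERK in the nucleus, had CPM of 98.4, 138, 74.5 and 79.2 in WT spleen and 91.8, 88.1, 60.8 and 54.4 in KO spleen, and these groups overlapped. In mLN Dusp1 had CPM of 45.9, 146 and 63.0 in WT and 27.0, 36.5, 26.2 and 21.6 in KO, without overlap. The log2 fold change of KO against WT was −0.39 ± 0.21 in spleen and −1.61 ± 0.33 in mLN. WT mLN 2 stood well above the other WT mLN samples, and WT spleen 2 was likewise the highest of its group. Without WT mLN 2 the log2 fold change in mLN was −0.99. Dusp1 did not pass in mLN with edgeR on the mLN samples alone, but it passed with DESeq2 and with all 15 samples in 1 fit.

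Dusp4, which acts on ERK and JNK in the nucleus, was scarce. It had CPM of 6.72 to 11.5 in WT spleen and 4.70 to 6.08 in KO spleen, without overlap, and a log2 fold change of −0.68 ± 0.19. Dusp4 did not pass in spleen with edgeR but passed with DESeq2. In mLN it had CPM of 4.53 to 10.8 in WT and 6.04, 6.15, 5.25 and 0.713 in KO samples 1 to 4. The last value rests on 8 reads, against 53 to 67 reads in the other KO mLN samples, and the groups overlapped at a log2 fold change of −0.84 ± 0.55. Dusp5, a nuclear phosphatase specific for ERK, had a log2 fold change of −0.20 ± 0.10 in spleen, where the groups overlapped, and of −0.43 ± 0.14 in mLN, where WT samples had CPM of 88.5 to 99.7 and KO samples CPM of 52.5 to 83.2. An annotated antisense gene shares 547 exon bases with Dusp5 and had up to 208 reads, and whether reads were counted by strand is not given in the sources used here, so Dusp5 is uncertain.

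Dusp6, a cytoplasmic feedback inhibitor of ERK, had CPM of 138, 126, 173 and 93.9 in WT spleen and 139, 141, 122 and 124 in KO spleen. In mLN its CPM was 109, 90.1 and 85.8 in WT and 81.6, 100, 94.1 and 85.4 in KO. The groups overlapped in both organs, with log2 fold changes of −0.01 ± 0.16 and −0.08 ± 0.12. Dusp7, a close relative, had CPM of 23.2 ± 2.75 in WT spleen and 18.2 ± 2.6 in KO spleen (SD, n = 4 each), and 18.5 ± 3.80 in WT mLN (SD, n = 3) and 13.4 ± 3.15 in KO mLN (SD, n = 4). Its groups overlapped in both organs, with log2 fold changes of −0.34 ± 0.13 and −0.47 ± 0.23.

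Dusp10 was the steadiest of the 8, with CPM of 46.6 to 58.0 over all 15 samples and log2 fold changes of −0.05 ± 0.08 in spleen and 0.05 ± 0.11 in mLN. Dusp16 was near the limit of detection, with 0 to 69 reads per sample. Its KO mLN samples had 0, 17, 4 and 69 reads, where 0 reads allow a count of up to 3, and the log2 fold change there turned from 0.19 ± 1.03 to −1.42 when the sample with 69 reads was left out. KO mLN 4 was thus both the lowest sample for Dusp4 and the highest for Dusp16.

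**Figure D2:**
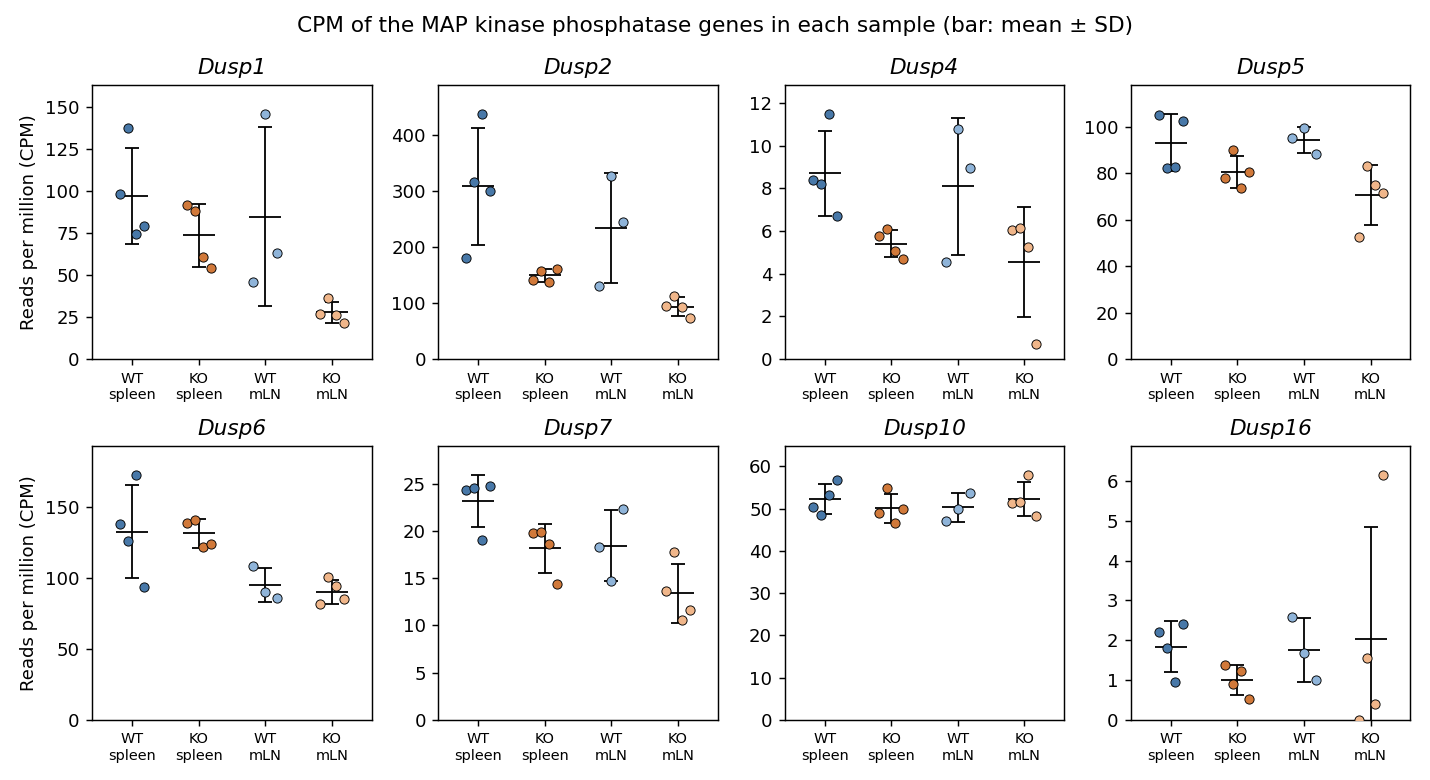
CPM of each of the 8 genes (linear axes from 0) in the 4 groups, with 1 point per sample and the mean ± SD as bars. The KO samples of Dusp2 lie below the WT samples in both organs, those of Dusp1 in mLN only, and Dusp10 is level across groups at 46.6 to 58.0 CPM.

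Counted over the 8 genes, 1 (Dusp2) passed as lower in KO spleen, where 0.751% of the 14254 genes tested did, and 1 (Dusp2) passed as lower in KO mLN, where 0.292% of 14359 did. KO samples lay wholly below WT samples for 2 of the 8 genes in spleen (Dusp2 and Dusp4; 6.31% of genes tested) and for 3 in mLN (Dusp1, Dusp2 and Dusp5; 6.94% of genes tested). None of the 8 lay wholly above, but the share of all genes that did was not counted, so this 0 has no background beside it. These counts use the contrast that was in view when the genes were picked and are not evidence about them. The Dusp2 call was lost in both organs when the replicate number was a block (log2 fold change −0.97 in spleen and −1.26 in mLN), and in spleen when all 15 samples shared 1 fit (−1.03). It passed in 2 of the 8 spleen fits that left out 1 sample (those without WT spleen 1 or WT spleen 3) and in 1 of the 7 mLN fits (that without WT mLN 1).

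The next question was whether the phosphatase genes differed between the organs within a genotype. It is not recorded whether organ differences were in view when the genes were picked. The samples compared here also gave the KO against WT values known at that choice, such as the lower Dusp2 of KO cells. The tests between organs, their adjusted p and the fits without 1 sample are therefore not free of that choice. In KO T cells 3 of the 8 genes were lower in mLN than in spleen by edgeR's quasi-likelihood test, Dusp1, Dusp2 and Dusp6, beside 13.9% of the 14240 genes tested that were lower. For the same 3 genes every KO mLN sample lay below every KO spleen sample, as was the case for 15.3% of genes tested. Dusp1 fell by 1.4 ± 0.19 on the log2 scale (adjusted p = 0.00035), from 73.8 ± 18.9 to 27.8 ± 6.28 CPM (SD, n = 4 each). Dusp6 fell by 0.54 ± 0.08 (adjusted p = 0.000704), from 131 ± 9.95 to 90.4 ± 8.51 CPM. Dusp2 fell by 0.67 ± 0.12 (adjusted p = 0.00182), from 149 ± 11.4 to 93.2 ± 16.5 CPM. All 3 calls passed in each of the 8 fits that left out 1 sample, with adjusted p of 0.000387 to 0.00178 for Dusp1, 0.001 to 0.00367 for Dusp6 and 0.00118 to 0.00786 for Dusp2. With all 15 samples in 1 fit the call of Dusp2 was lost.

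The other 5 genes did not pass in KO T cells. The log2 fold change was −0.44 ± 0.18 for Dusp7 (adjusted p = 0.101 by edgeR), −0.19 ± 0.12 for Dusp5 (0.282) and −0.25 ± 0.46 for Dusp4 (0.736). Without KO mLN 2, Dusp7 passed (−0.59, adjusted p = 0.0291). The value of Dusp10 was 0.06 ± 0.09 (adjusted p = 0.641) and that of Dusp16 1.02 ± 0.92 (adjusted p = 0.455), and the latter turned to −0.59 without KO mLN 4.

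In WT T cells, without the replicate block, 0 of the 8 genes passed in either direction. Of the 14515 genes tested, 2980 passed in either direction, and 10.8% were lower in mLN. By edgeR 1 of the 8, Dusp6, had an unadjusted p under 0.05. DESeq2 also called 0 of the 8. In no gene of the 8 did the WT mLN samples lie wholly below the WT spleen samples (18.2% of genes tested did). For Dusp6 the log2 fold change was −0.45 ± 0.19 (adjusted p = 0.132 by edgeR), with group means of 133 ± 32.5 CPM in spleen (SD, n = 4) and 94.8 ± 12.1 CPM in mLN (SD, n = 3). Without WT spleen 4, its lowest spleen sample, Dusp6 passed (−0.59, adjusted p = 0.0257). WT samples with the same number in both organs deviated together across genes, and with that number as a block Dusp6 passed at −0.27 ± 0.09 (adjusted p = 0.0412). Without the block the log2 fold change of Dusp2 was −0.37 ± 0.33 (adjusted p = 0.465) and that of Dusp1 −0.16 ± 0.35 (adjusted p = 0.785), and WT mLN 2 lay above 3 of the 4 WT spleen samples for Dusp2 and above all 4 for Dusp1. With the block these were −0.18 ± 0.09 (adjusted p = 0.178) for Dusp2 and −0.38 ± 0.18 (adjusted p = 0.144) for Dusp1. The other 5 had adjusted p of 0.267 to 0.984 without the block.

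The difference between the genotypes in their organ difference, tested as a genotype by organ interaction over all 15 samples, was called for 0 of the 8 genes and for 0% of the 15438 genes tested (652 of all genes and 1 of the 8 at an unadjusted p under 0.05). DESeq2 called 4 genes in all and 0 of the 8. The interaction of Dusp1 was −1.22 ± 0.42 on the log2 scale (adjusted p = 0.9998 by edgeR, unadjusted 0.0108), and −0.61 without WT mLN 2, the sample that moved it most. That of Dusp6 was −0.08 ± 0.21 and that of Dusp2 was −0.29 ± 0.36. With genotype and replicate number as a block, the interaction was −1.0 ± 0.23 for Dusp1 (adjusted p = 0.618 by edgeR). It was then −0.49 ± 0.17 for Dusp2 (0.853) and −0.26 ± 0.12 for Dusp6 (0.918), with smaller SE than without the block. The lower Dusp1 and Dusp2 of mLN in KO cells are therefore not shown to differ from the organ difference in WT cells.

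**Figure D3:**
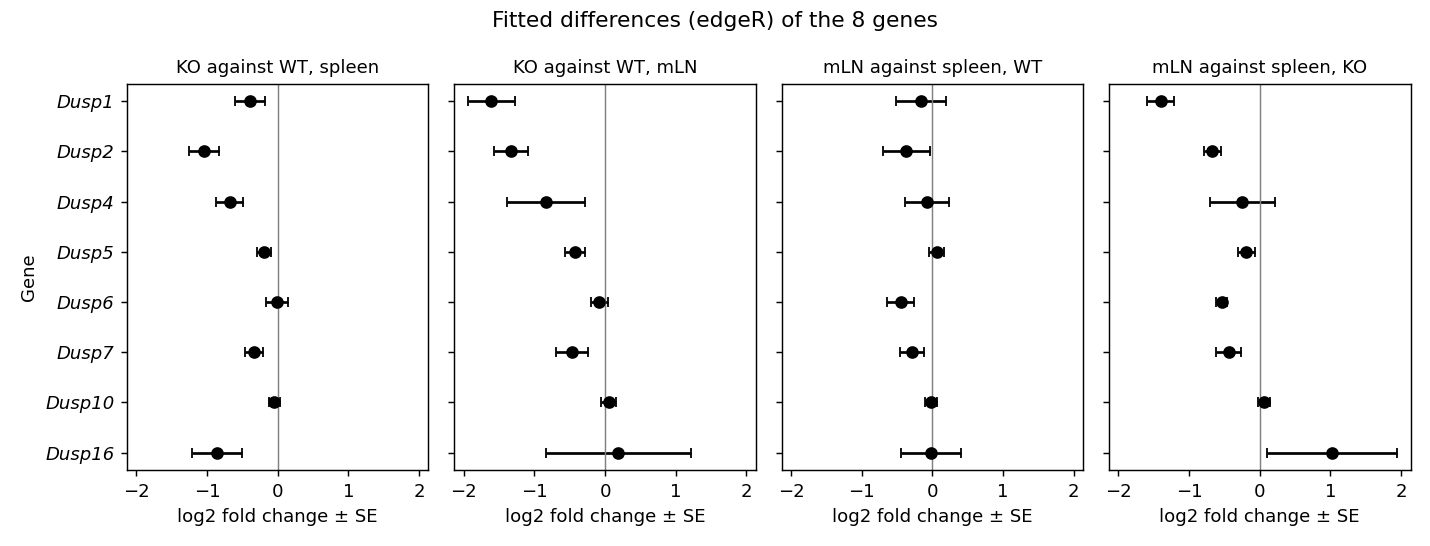
Log2 fold change ± SE of the 8 genes by edgeR in the 4 comparisons (x axis: log2 fold change, y axis: gene). Dusp1, Dusp2 and Dusp6 lie left of 0 in mLN against spleen of KO cells, at −1.4, −0.67 and −0.54, while Dusp10 lies near 0 in all 4 panels.

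Genes around the phosphatases were taken from fixed lists, chosen with earlier results of these samples known. The list results come from fits without the replicate block, also between the organs of WT cells, where same-numbered samples deviated together. With the block 4351 genes were called between the organs of WT cells, against 2980 without it. List counts of WT and KO cells are therefore not directly comparable. Of 20 genes known to be induced by ERK, 16 were tested in KO T cells between the organs, where 9 fell in mLN and 1 rose (median log2 fold change −0.78, against 0.01 over all genes). Egr1, an early transcription factor, fell by 1.08 ± 0.10 (adjusted p = 2.97e-05), Fosb by 3.13 ± 0.38 (adjusted p = 0.000171) and Fos by 2.72 ± 0.37 (adjusted p = 0.000374), both AP-1 subunits. Spred2, an inhibitor of the pathway, fell by 1.16 ± 0.19 (adjusted p = 0.00107). Myc went the other way, at 38.4 to 61.8 CPM in KO spleen and 80.1 to 125 CPM in KO mLN, without overlap. In WT T cells 17 were tested between the organs, of which Spred2 fell by 1.28 ± 0.22 (adjusted p = 0.00443), while Myc (log2 fold change 0.92 ± 0.23, adjusted p = 0.0198), Ier3 (1.10 ± 0.29, 0.0261) and Spry1 (1.27 ± 0.34, 0.0294) rose, and the median was −0.54. The interaction was called for 0 of 17 ERK-induced genes (2 at an unadjusted p under 0.05, 0 by DESeq2).

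Between genotypes the ERK-induced genes gave calls in both directions. In spleen, where Dusp2 and Dusp4 were lower in every KO sample, Fos was higher in KO (148 ± 28.5 against 40.8 ± 16.9 CPM, log2 fold change 1.88 ± 0.26, adjusted p = 0.0133) and so was Fosb (2.08 ± 0.33, adjusted p = 0.0276), while Myc was lower (−0.98 ± 0.20, adjusted p = 0.0453). These 3 were the calls among 16 tested (median 0.15). In mLN 1 of 16 passed, Ier2, which was lower in KO (−0.50 ± 0.10, adjusted p = 0.0492, median of the list −0.26). The KO spleen samples with high Fos serve in both the KO against WT and the mLN against spleen comparison, so the higher Fos of KO spleen and its fall in KO mLN share those samples.

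Of the 14 JNK and p38 effectors, 4 of 13 tested fell in mLN of KO cells, Junb (log2 fold change −1.04 ± 0.08, adjusted p = 5.97e-06), Rps6ka4 (−1.17 ± 0.11, 2.9e-05), Jun (−2.08 ± 0.23, 8.63e-05) and Elk1 (−1.27 ± 0.31, 0.0119). In WT cells 3 of 12 fell, Rps6ka4 (−0.87 ± 0.12, adjusted p = 0.00145), Elk1 (−1.01 ± 0.17, 0.00387) and Elk4 (−0.45 ± 0.12, 0.0254). The median was −0.25 in both genotypes. Between genotypes Junb, an AP-1 subunit, was lower in KO mLN (−0.87 ± 0.14, adjusted p = 0.0326) as 1 of 12 tested. In spleen 0 of 13 passed by edgeR (4 at an unadjusted p under 0.05, 1 by DESeq2).

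**Figure D4:**
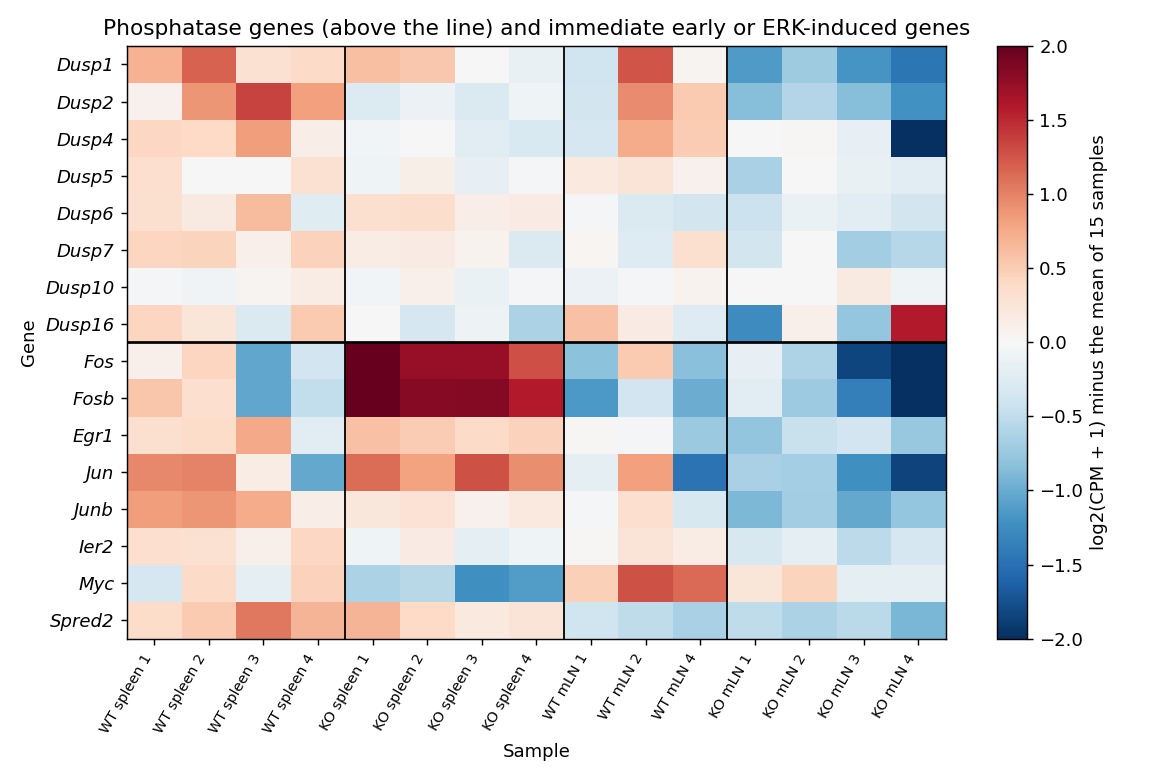
Log2(CPM + 1) of each gene minus its mean over the 15 samples (colour, limited to ±2) for the 8 phosphatase genes above the line and 8 immediate early or ERK-induced genes below it, with 1 column per sample. Fos and Fosb are high in the 4 KO spleen samples only, whereas Dusp1, Dusp2, Jun and Junb are low in the 4 KO mLN samples. Jun is low in WT spleen 4 and WT mLN 4 as well.

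Tissue dissociation and sorting can by themselves induce immediate early genes, Dusp1 among them. A list of 13 such stress genes, 5 of which are also on the ERK list and 4 on the JNK and p38 list, was examined beside the phosphatases. In KO T cells 6 of 12 fell in mLN, Junb, Egr1, Jun and Fosb first, together with Dusp1 and Dusp2. In WT T cells 0 of 10 passed between the organs by edgeR (2 at an unadjusted p under 0.05, 1 by DESeq2). In KO spleen 3 of 11 were higher than in WT spleen, Fos, Fosb and Hspa1a, a heat shock protein gene at 2.94 to 56.3 CPM in KO and 0.10 to 0.523 CPM in WT, while Dusp2 was lower. Of these 11, 9 had an unadjusted p under 0.05 by edgeR, and DESeq2 called 6 higher and 2 lower in KO. In KO mLN 2 of 12 were lower than in WT mLN by edgeR, Junb and Ier2. There 8 had an unadjusted p under 0.05, and DESeq2 called 3 higher and 2 lower in KO. The heat shock genes of the list had higher means in KO mLN than in WT mLN. These were Hspa1a (14.7 against 2.54 CPM), Hspa1b (2.71 against 0.156), Hsph1 (163 against 74.8) and Dnajb1 (187 against 115). The part of handling in the values of Dusp1 and Dusp2 was not tested.

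Upstream of the phosphatases little passed. The 26 kinases and GTPases that lead to MAP kinases gave 0 calls by edgeR between genotypes in spleen (6 at an unadjusted p under 0.05, 3 by DESeq2) and 0 in mLN (4 and 1). Between the organs 3 of 26 passed in each genotype, beside 2980 of all 14515 genes tested in WT and 3602 of all 14240 in KO cells. Rasgrp1, the exchange factor that couples the T cell receptor to Ras, fell in mLN of WT (−0.57 ± 0.11, adjusted p = 0.00768) and KO cells (−0.38 ± 0.08, adjusted p = 0.00379), and so did the Ras inhibitor Nf1 (−0.88 ± 0.17, 0.00683 and −0.54 ± 0.17, 0.0419). Map3k1 rose in KO (0.32 ± 0.07, adjusted p = 0.00573). Among the MAP kinases, Mapk7 (ERK5) fell in mLN of both WT (−0.73 ± 0.21, adjusted p = 0.0357) and KO cells (−0.70 ± 0.15, adjusted p = 0.00665), as 1 of 8 and 1 of 7 tested. Between genotypes 0 of 7 MAP kinases passed by edgeR in spleen (2 at an unadjusted p under 0.05, 1 by DESeq2) and 0 of 7 in mLN (0 and 0).

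Other phosphatases of MAP kinases and of the wider family were read from the same counts. The remaining MAP kinase phosphatases, Dusp8 and Dusp9, stayed at or under 1.33 and 2.18 CPM in every sample. Of 16 other dual-specificity phosphatases 9 were tested, and 0 passed between genotypes by edgeR in spleen (3 at an unadjusted p under 0.05, 1 by DESeq2) or mLN (1 and 1). Between the organs, Dusp22 rose in mLN of WT cells (0.75 ± 0.20, adjusted p = 0.0259) and Dusp14 in mLN of KO cells (0.53 ± 0.13, adjusted p = 0.0115), opposite to Dusp1, Dusp2 and Dusp6. Of the tyrosine phosphatases that act on MAP kinases, Ptpn5 fell in mLN of WT (−2.09 ± 0.50, adjusted p = 0.0188) and KO cells (−2.05 ± 0.66, adjusted p = 0.0396) at low levels of 0 to 3.32 CPM. Ptpn7, the abundant one in lymphocytes, had 249 to 328 CPM in WT mLN and 356 to 449 CPM in KO mLN. It was not called by edgeR in that comparison (unadjusted p under 0.05, called by DESeq2). In spleen it had 318 to 391 CPM in WT and 432 to 452 CPM in KO, also without a call by edgeR. Of the 2 tyrosine phosphatases tested in spleen, 1 had an unadjusted p under 0.05 by edgeR, and DESeq2 called 1 higher in KO.

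Profiles over the 15 samples were compared as the root mean square difference of log2 CPM after centring each gene, among 15438 genes, and the samples share their groups, organs and libraries. The genes nearest to Dusp2 were Inafm1 (0.350), Gm614 (0.370), Sept10 (0.378), Gm1976 (0.390) and Hlcs (0.394), where the median over all genes was 0.802. Inafm1, Gm614, Sept10 and Gm1976 had group means of only 0.464 to 7.35 CPM. The genes nearest to Dusp1 were Sept10 (0.325), Gm17055 (0.391), Gm1976 (0.401), Junb (0.403) and Cacna2d2 (0.409), with a median of 0.873 over all genes. Junb, at group means of 892 CPM in WT spleen, 641 in KO spleen, 566 in WT mLN and 311 in KO mLN, was the single abundant gene among them. Over the 15 samples the log2 CPM of Dusp10 had an SD of 0.09, that of Dusp5 of 0.24 and that of Dusp6 of 0.32, against 0.75 for Dusp2 and 0.83 for Dusp1.

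Values of other cell types moved with some of these comparisons. The erythroid markers were high in 3 WT samples. Between genotypes 0 of 6 passed by edgeR in spleen (all 6 at an unadjusted p under 0.05, 6 lower in KO by DESeq2, median log2 fold change −3.45) and 0 of 5 in mLN (5 at an unadjusted p under 0.05, 0 by DESeq2, median −2.46). Pax5, a B cell transcription factor, was higher in KO mLN (1.62 to 4.41 CPM) than in WT mLN (0 to 0.199 CPM, log2 fold change 4.4 ± 0.75, adjusted p = 0.0372), while Ms4a1 had 0 reads in every mLN sample. Eomes, on the NK and innate lymphoid list but also expressed by activated T cells, was higher in KO spleen (log2 fold change 0.93 ± 0.17, adjusted p = 0.0444) and KO mLN (1.13 ± 0.21, adjusted p = 0.0422), as 1 of the 4 genes tested on that list. Klrb1c, an NK cell receptor on the same list, had lower means in KO, at 3.39 ± 1.45 against 6.97 ± 3.34 CPM in spleen (SD, n = 4 each) and 2.88 ± 1.51 (SD, n = 4) against 9.33 ± 3.53 CPM (SD, n = 3) in mLN, and was not called by edgeR but was by DESeq2 in mLN. Between the organs of KO cells, 5 of 8 myeloid markers fell in mLN, S100a8 (−2.51 ± 0.41, adjusted p = 0.00115) and Csf1r (−1.49 ± 0.25, adjusted p = 0.00126) among them, and 1, Itgax, rose from 3.9 ± 2.04 to 8.66 ± 2.03 CPM (SD, n = 4 each). Cd8a also rose (4.43 ± 0.42, adjusted p = 3.18e-05) to 18.4 ± 3.13 CPM (SD, n = 4). Cd8b1, the other CD8 marker, was called as higher there by DESeq2 but not by edgeR. Its mean was 1.86 CPM in KO spleen, 4.31 CPM in KO mLN and 4.45 CPM in WT mLN. In WT cells 2 of 9 myeloid markers fell in mLN, S100a8 and S100a9. The part of these cells in the organ difference of Dusp1, Dusp2 and Dusp6 was not tested.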

How the data were processed

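RNA was read as single-end cDNA libraries made with a low-input kit. The authors aligned reads with STAR 2.6.1a to GRCm38 with GENCODE M23 and deposited raw, whole-number read counts per gene, 1 file per sample, without normalization; strand use is not given in the sources used here. Symbols, loci and exon lengths came from GENCODE M21, where 55240 of 55421 genes matched. Counts were tested with edgeR 4.0.16 (R 4.3.3): filterByExpr, TMM, quasi-likelihood test, Benjamini-Hochberg adjustment over all genes tested, limit 0.05, each comparison fitted on its own samples and the interaction on all 15. DESeq2 1.42.0 was an alternative, as were other normalizations, no filter, 1 joint fit, the replicate block, a log2 limit of 1 and each sample left out. Procedures were tested on simulated data. Figures used matplotlib 3.10.9.

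Members and lists were chosen with earlier results of these data known. Named were all 8 members, Prkaa1, up to 4 called genes per list and comparison with the smallest p, and the 5 profiles nearest to Dusp1 and Dusp2. Ptpn7, Dusp8, Dusp9, Klrb1c, Ncr1, Kit, Itgax and the genes of the heat map were chosen after their values were seen. Replicate numbers come from the labels. Deviations of same-numbered WT samples correlated across organs at r = 0.258, 0.243 and 0.291, so they were taken as paired. Counting intervals and the floor of 3 reads cover counting error only. A list gene that the naming rule picks between the organs of WT cells is not reported here.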

Additional observations from a re-analysis of the deposited data

Results flagged for a closer look

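Of 48 groups of 4 samples examined (the 8 phosphatase genes, Prkaa1 and 7 marker sums in the 3 groups of 4), 3 held a sample whose gap to its nearest neighbour exceeded Dixon's 95% limit of 0.829, and chance alone gives about 1 in 20. Dusp4 in KO mLN 4 was at 0.713 CPM, against 5.25 to 6.15 CPM in the other KO mLN samples. Dusp7 in WT spleen 3 was at 19.1 CPM, against 24.3 to 24.8 CPM in the other WT spleen samples. The summed CD8 T cell markers in WT spleen 4 came to 5.11 CPM, against 2.56 to 2.88 CPM in the others. The cause of these gaps was not tested.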

How the results depend on the processing

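Calls of the phosphatase genes depended on the fit between genotypes and less between the organs of KO cells. Beside 1 called gene of the 8 in spleen, DESeq2 called 2 (Dusp2 and Dusp4). The fit without a filter on low counts also called 2, but these were Dusp1 and Dusp2. The joint fit, the replicate block and the fit without the 3 libraries high in erythroid genes (chosen after seeing the data) called 0. Fits without 1 sample called 0 to 1. In mLN, beside 1, DESeq2 and the joint fit called 2, no filter 3, and the block and the erythroid setting 0, with 0 to 2 without 1 sample. Between organs, no filter called 2 and the block 1 in WT (0 to 1 without 1 sample), a log2 limit of 1 left 1 in KO (3 to 4 without 1 sample), and no filter called 1 interaction, Dusp1 (adjusted p = 1.04e-10 against 0.618 or more in the other fits). The cause was not tested.

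Over all genes, calls in spleen between genotypes numbered 185, and 64 with a log2 limit of 1, 840 by DESeq2, 1422 without a filter, 85 in the joint fit, 17 with the block, 119 in the erythroid setting and 12 to 324 without 1 sample. In mLN they numbered 92, and 47, 588, 913, 500, 1, 4 and 4 to 117 in the same order. Between organs, WT gave 2980, 723 with a log2 limit of 1, 1472 in the erythroid setting, 4351 with the block and 1816 to 2780 without 1 sample, and KO gave 3602, 763 with the limit and 2631 to 3669 without 1 sample. The interaction gave 4 by DESeq2, 112 without a filter and 3 with the block, and 0 without any 1 sample. Same-numbered samples of different genotype were not paired by this check, and the block there reflects a shared number only. Same-numbered KO samples correlated across organs at r = 0.0409, 0.17, 0.0258 and 0.259, against −0.171 to 0.103 for differently numbered KO samples. The check did not settle whether the KO samples were paired. With the block, Dusp1, Dusp2 and Dusp6 still passed between the organs of KO cells.

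Signs that turned were of genes close to 0 or scarce. Between genotypes, Dusp6 in spleen turned to 0.01 without a filter, 0.03 with the block, 0.01 in the erythroid setting and −0.14 to 0.16 without 1 sample, and in mLN it ran from −0.15 to 0.04. Dusp10 turned to 0.04 in spleen in the erythroid setting and to 0.00 in mLN with the block (0.00 to 0.10 without 1 sample). Dusp16 in mLN turned to −0.27 with the block and −0.09 in the erythroid setting, and ran from −1.42 to 0.60. Between the organs of WT cells, Dusp4 turned to 0.05 and Dusp10 to 0.00 with the block, Dusp10 to 0.00 and Dusp16 to 0.13 in the erythroid setting, and without 1 sample Dusp1 ran from −0.79 to 0.13, Dusp4 from −0.32 to 0.21, Dusp5 from −0.01 to 0.12, Dusp10 from −0.07 to 0.02 and Dusp16 from −0.42 to 0.26. In KO cells Dusp4 ran from −0.42 to 0.12 and Dusp16 from −0.59 to 1.44. For the interaction, Dusp7 turned to 0.10 in the erythroid setting, and without 1 sample Dusp2 ran from −0.59 to 0.00, Dusp4 from −0.45 to 0.20, Dusp6 from −0.25 to 0.06, Dusp7 from −0.30 to 0.02 and Dusp16 from −0.57 to 1.45. The log2 fold changes of Dusp1, Dusp2 and Dusp6 between the organs of KO cells kept their sign in every fit run. Depth limits Dusp4 and Dusp16 most.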
